A study of Saccharomyces cerevisiae S288C with 18 samples.

Results

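Cryptic unstable transcripts (CUT) were followed in RNA that co-purified with 4 yeast proteins. The members were taken by name alone, as every feature whose identifier begins with CUT, and this gave 2240 of the 23521 features counted. They fall into 925 identifiers of the form CUT followed by a number and 1315 of the form CUT_GIM_ followed by a number. A total of 717 had at least 1 read in some library, and 274 had enough reads to be tested, at least 10 reads in at least 3 libraries.

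CUT are short RNA polymerase II transcripts that arise mostly from bidirectional promoters and between genes of budding yeast. Their transcription is ended by the Nrd1-Nab3-Sen1 complex, the TRAMP complex then adds a short oligo(A) tail, and the nuclear exosome with its Rrp6 subunit degrades them, so that they are scarce in wild-type cells and become visible when the exosome is impaired. Molecules that escape this route can reach the cytoplasm, where decapping, Xrn1 and nonsense-mediated mRNA decay (NMD) act on many non-coding RNAs.

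The study asked which RNAs are found with Upf1, the RNA helicase of NMD, with Pab1, the poly(A) binding protein, and with Lsm1, a subunit of the ring that binds RNAs with short tails and activates decapping. Rpl16a, a protein of the large ribosomal subunit, was purified as a measure of RNA on ribosomes. Each protein carried a C-terminal TAP tag, expressed from its own gene in a derivative of the haploid strain BY4741, and was collected on IgG beads from cells in exponential growth in YPD at 30 °C. The control group was the same purification from untagged BY4741, so it holds RNA that sticks to the beads without a bait. The input group was total extract RNA, and the sources used here do not give the strain behind each input. Every group, Upf1-TAP, Pab1-TAP, Rpl16a-TAP, Lsm1-TAP, control and input, had 3 libraries, which the study describes as replicated experiments, and the labels name no deletion in any strain.

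Libraries held 2790148 to 16381719 counted reads. Some stood apart from their group. Ribosomal RNA took 5.68% to 67.0% of the counted reads in replicate 3 of all 6 groups and in replicate 2 of the control, and at most 0.0239% in the other libraries. YLR154W-E, a feature inside the ribosomal DNA that was summed apart, took 8.24% in Lsm1-TAP replicate 2, 3.45% in control replicate 1, 1.10% in Lsm1-TAP replicate 1 and less in the others. Replicate 3 of Rpl16a-TAP and replicate 3 of the input had the fewest CUT reads, 507 and 772. In Pab1-TAP replicate 3, 19 of the 274 tested CUT were at least 4-fold above both other Pab1-TAP libraries (0.5 added to each value), beside 3.05% of all features. In each of the other Pab1-TAP libraries 0 CUT were so. By the same rule 21 CUT in input replicate 3 lay below both other input libraries, beside 4.67% of all features. In Rpl16a-TAP replicate 3, 13 CUT lay below both others of that group, beside 9.27%. Values without single libraries are given beside the counts they change.

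Most CUT had no read in the deposited counts. A total of 1523 were without a read in any of the 18 libraries, and a further 135 had between 1 and 9 reads over all of them. The silent identifiers were not scattered evenly, as the plot of identifiers with a read shows. Every one of the 490 identifiers from CUT436 to CUT925 had 0 reads, while 353 of the 435 below that number, 81.1%, had at least 1. Among the CUT_GIM identifiers, 10 stretches of at least 20 consecutive silent numbers held 456 identifiers, the longest of them 80, and outside these stretches 364 of 859, 42.4%, had a read.

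**Figure D1:**
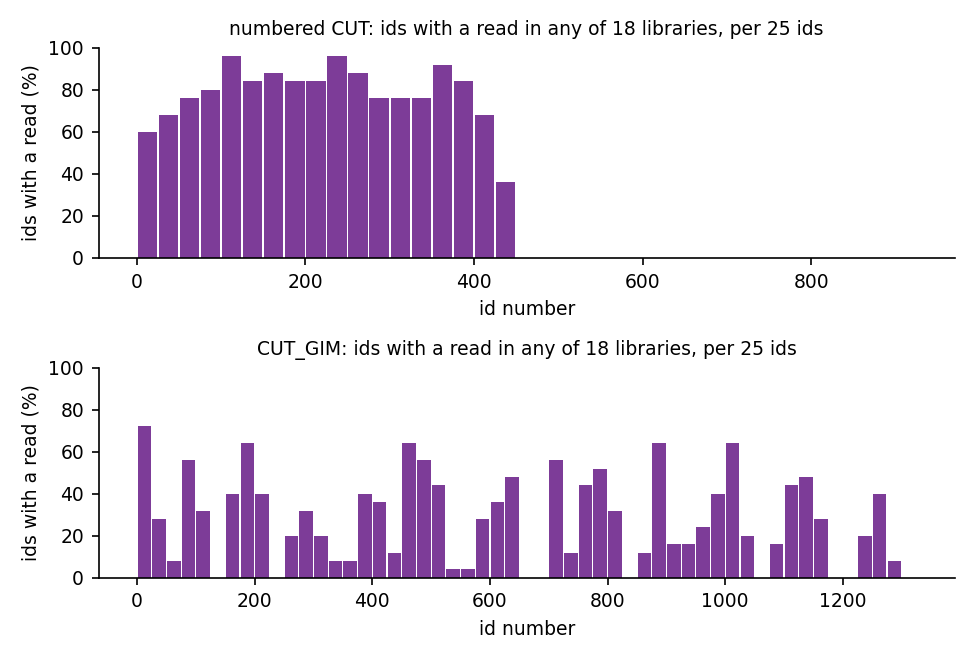
Percentage of CUT identifiers with at least 1 read in any of the 18 libraries, for each run of 25 consecutive identifier numbers, with the numbered CUT above and the CUT_GIM below. No bar stands above CUT435 in the upper plot, and the lower plot has gaps that correspond to the 10 silent stretches.

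Other feature classes had silent groups that follow a label of strand. Xrn1-sensitive transcripts (XUT) with R in the identifier had no read in 812 of 812 cases, against 150 of 846 for those with F. Introns of genes named W for the Watson strand were silent in 4 of 137 cases and those of genes named C for the Crick strand in 133 of 135, whereas the open reading frames (ORF) of both strands were nearly all read. CUT identifiers carry no strand or position, and the sources used here do not give the strand and overlap settings of the counting. What silenced these CUT was therefore not tested, and 0 reads in a silent block says nothing about the RNA. Some CUT_GIM identifiers with values in the study's supplementary data are without a read in the deposited counts, so the 2 may come from different countings, and all CUT counts given here hold for the deposited counts alone. In addition, reads from a CUT and from a gene that overlaps it on the same strand cannot be told apart. The libraries were made with a stranded kit, but whether the counting kept antisense reads apart is not known. A total of 73 CUT with reads had the same 18 counts as some other feature, and 0 of these 73 had 10 reads or more.

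In the libraries where CUT were read, they were a small part of the RNA and a larger part in the Upf1-TAP and Pab1-TAP purifications. CUT took 0.0388% ± 0.0131 (SD, n = 3) of the counted reads in the input and 0.0612% ± 0.00650 in the control. The Upf1-TAP mean was 0.194% ± 0.0364 and the Pab1-TAP mean 0.140% ± 0.0502. Lsm1-TAP had 0.0933% ± 0.0353 and Rpl16a-TAP 0.0405% ± 0.0196. The 3 libraries of Upf1-TAP, at 0.153% to 0.222%, and the 3 of Pab1-TAP, at 0.109% to 0.198%, all lay above every input and control library, while the Rpl16a-TAP libraries, at 0.0179% to 0.0528%, overlapped the input. These shares are relative, so more CUT and less of other RNA cannot be told apart. The rise over the input was not particular to CUT. With scaling by total count, the median log2 change over the input was 2.25 for tested CUT and 2.33 for all tested features in Upf1-TAP. In Pab1-TAP the medians were 1.85 and 1.92. XUT took 0.0343% to 0.0819% of the counted reads in the input libraries and 0.459% to 0.970% in those of Upf1-TAP. With ribosomal features and YLR154W-E left out of the total, the means were 0.198% (Upf1-TAP), 0.150% (Pab1-TAP), 0.0985% (Lsm1-TAP), 0.0666% (control), 0.0529% (Rpl16a-TAP) and 0.0454% (input).

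**Figure D2:**
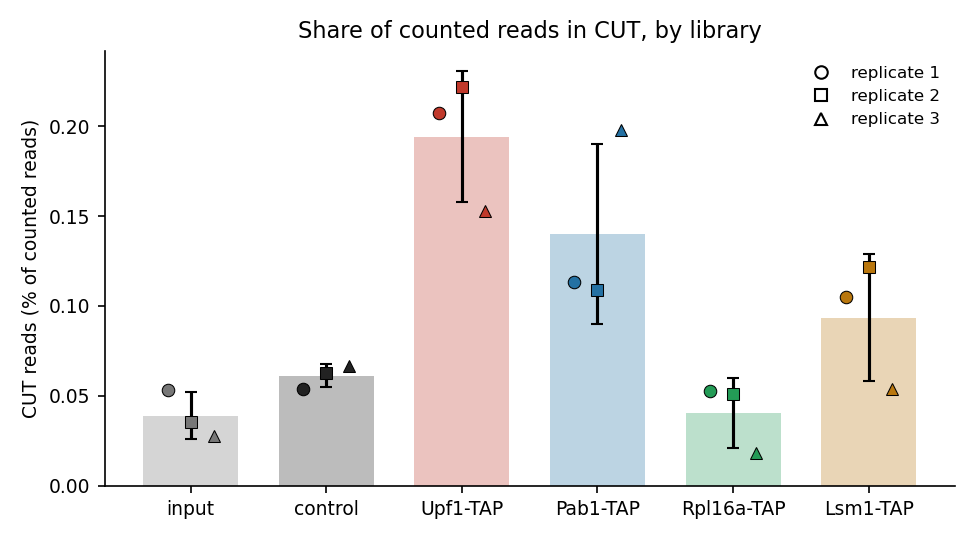
CUT reads as a percentage of all counted reads in each of the 18 libraries. Bars are group means, error bars are SD (n = 3) and points are libraries, with a symbol for each replicate number; the Upf1-TAP points sit between 0.153% and 0.222% and the input points between 0.0277% and 0.0532%.

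The number of CUT that could be followed differed in the same way between the groups. At least 10 reads in all 3 libraries were found for 134 CUT of the Upf1-TAP group, 110 of Pab1-TAP, 50 of Lsm1-TAP, 19 of the control, 9 of the input and 6 of Rpl16a-TAP, and this number also moves with depth. For 4 CUT this held in all 6 groups, and 72 CUT met it in both Upf1-TAP and Pab1-TAP. Among the 274 tested CUT the group with the highest mean was Upf1-TAP for 100, Pab1-TAP for 92, the input for 54, Rpl16a-TAP for 13, Lsm1-TAP for 12 and the control for 3. Of the 274, 171 reached the read minimum only through the Upf1-TAP and Pab1-TAP libraries, since fewer than 3 other libraries had 10 reads. These had to lie high in those groups to be tested, so the counts and medians below describe the CUT that passed and not all CUT.

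The reads were unevenly spread over the CUT. The 10 with the highest mean level held 43.6% of all CUT reads, and the tested CUT had a median of 191 reads over the 18 libraries (58 to 17370). Levels below are reads per 1e6 counted reads after TMM scaling (CPM), which aligns the libraries on the assumption that the bulk of features do not change, and they compare libraries and not CUT of different length.

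CUT155 had the highest mean level. It was at 69.7, 59.4 and 167 CPM in input replicates 1 to 3, and at 53.8, 240.0 and 174 CPM in the control. The Upf1-TAP libraries gave 18.8, 56.5 and 92.5 CPM, the Pab1-TAP libraries 3.73, 48.0 and 129 CPM, the Rpl16a-TAP libraries 114, 168 and 385 CPM, and the Lsm1-TAP libraries 191, 292 and 68.8 CPM. The replicates of a group spread so widely that CUT155 passed the test in none of the 10 comparisons (lowest adjusted p = 0.195, edgeR's quasi-likelihood test with Benjamini-Hochberg adjustment). It took 0.618% to 7.60% of the CUT reads in Pab1-TAP and 20.4% to 53.5% in Rpl16a-TAP. Leaving it out, CUT took 0.184% ± 0.0402 of the counted reads in Upf1-TAP and 0.0291% ± 0.0181 in Rpl16a-TAP.

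Several of the other abundant CUT were highest with Upf1-TAP. CUT_GIM_1263 was at 93.4, 113 and 125 CPM in Upf1-TAP, at 29.1, 27.5 and 66.0 CPM in Pab1-TAP and at 31.0, 23.0 and 20.6 CPM in the control. All Upf1-TAP libraries lay above all others, and the change over the control was 2.15 ± 0.51 (log2, SE; edgeR adjusted p = 0.00465). CUT_GIM_0761 was at 69.3, 69.8 and 36.0 CPM in Upf1-TAP, at 49.2, 45.8 and 19.9 CPM in Pab1-TAP, and at 10.6, 3.45 and 7.11 CPM in the control, with log2 changes over the control of 3.05 ± 0.56 (edgeR adjusted p = 0.00087) and 2.45 ± 0.55 (edgeR adjusted p = 0.00687). CUT_GIM_0105 reached 37.5, 132 and 113 CPM with Upf1-TAP against 9.80, 27.1 and 11.9 CPM in the control, a log2 change of 2.53 ± 0.63 (edgeR adjusted p = 0.00622). For CUT091 the Upf1-TAP libraries gave 40.3, 49.3 and 15.9 CPM and the control 5.00, 4.66 and 3.65 CPM, with a log2 change of 2.98 ± 0.53 (edgeR adjusted p = 0.000719).

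The abundant CUT221 had the opposite order. It was at 7.77, 9.48 and 9.96 CPM in Upf1-TAP and at 43.1, 23.8 and 34.6 CPM in the input, and its control libraries gave 18, 36.4 and 42.3 CPM. The 3 Upf1-TAP libraries lay below all input and control libraries, with a log2 change of −1.83 ± 0.58 against the control (edgeR adjusted p = 0.0216), but with scaling by total count this change was −0.93 and did not pass (edgeR adjusted p = 0.292), and the call was also lost without replicate 1 or 2 of Upf1-TAP and without replicate 2 or 3 of the control. Of the remaining abundant CUT, CUT306, CUT_GIM_0198, CUT_GIM_1123 and CUT_GIM_1126 differed between replicates of Pab1-TAP by large factors. CUT_GIM_1123, for example, was at 11.1, 10.3 and 101 CPM there, while CUT_GIM_0198 was lowest in the same replicate 3, at 62.1, 67.8 and 12.2 CPM.

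Over the untagged control, most of the CUT calls in Upf1-TAP and Pab1-TAP were increases, in a set partly chosen by high reads in those groups. A change was called at an adjusted p under 0.05 over all 12582 tested features. Against the control, 81 of the 274 tested CUT were higher in Upf1-TAP, 29.6%, beside 19.8% of all features, and 5 were lower, 1.82%, beside 13.9%. In Pab1-TAP 55 were higher, 20.1%, beside 8.24% of all features, and 0 were lower beside 8.08%. With DESeq2 the CUT lower in Pab1-TAP also numbered 0. By edgeR's test 109 of the 274 CUT had an unadjusted p under 0.05 in either direction, beside 3950 of all 12582 features. The 3 tagged libraries lay wholly above the 3 control libraries for 104 CUT in Upf1-TAP (26.2% of all features did so) and for 108 CUT in Pab1-TAP (19.7% of all features).

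The median log2 change of the tested CUT over the control was 1.28 for Upf1-TAP and 1.35 for Pab1-TAP, beside 0.07 and 0.19 for all features. These values depended on which CUT could be tested. Among the 189 CUT that reached 10 reads in 3 libraries outside Upf1-TAP and the control, 47 were higher, 24.9%, beside 19.0% of the features that did so, with a median of 1.02 beside −0.05. Among the 202 CUT that did so outside Pab1-TAP and the control, 33 were higher, 16.3%, beside 8.09%, with a median of 1.14 beside 0.16. In the few CUT with 10 reads in every library compared, the median was −0.19 for Upf1-TAP (17 CUT, all features −0.04) and 0.29 for Pab1-TAP (19 CUT, all features 0.13). With total count scaling, the CUT calls were 135 higher and 0 lower for Upf1-TAP, 49.3% beside 31.5% of all features in either direction. For Pab1-TAP they were 59 higher and 0 lower, 21.5% beside 8.89%. The Upf1-TAP count fell from 86 to 50 without control replicate 2 or without control replicate 3, to 53 without Upf1-TAP replicate 1 and to 52 without Upf1-TAP replicate 2. The Pab1-TAP count fell from 55 to 26, 19 or 20 without control replicate 1, 2 or 3, to 36 without Pab1-TAP replicate 2 and to 22 without Pab1-TAP replicate 3.

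Few CUT passed the test between Lsm1-TAP or Rpl16a-TAP and the control. For Lsm1-TAP 0 CUT and 0 of all features passed edgeR's test against the control, and DESeq2 called 0 CUT. In edgeR 23 of the 274 CUT had an unadjusted p under 0.05, beside 1084 of all 12582 features. For Rpl16a-TAP 1 CUT was higher, beside 0.0556% of all features, and 0 were lower beside 0.246%, and DESeq2 called 3 CUT. There 28 CUT had an unadjusted p under 0.05 in edgeR, beside 1766 of all features. The libraries lay wholly above the control for 17 CUT in Lsm1-TAP (8.64% of all features) and wholly below for 5 (5.42%), and for Rpl16a-TAP above for 9 (8.22%) and below for 25 (12.3%). The CUT medians were 0.27 for Lsm1-TAP and −0.28 for Rpl16a-TAP. That 1 CUT was CUT_GIM_0154, at 19.1, 19.5 and 24.2 CPM in Rpl16a-TAP and at 1.20, 1.04 and 0.547 CPM in the control. Its libraries did not overlap and the log2 change was 4.46 ± 0.89 (edgeR adjusted p = 0.0328), but the call was lost when any single library of the 6 was left out, with changes of 4.196 to 4.68, and with total count scaling (edgeR adjusted p = 0.063).

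**Figure D3:**
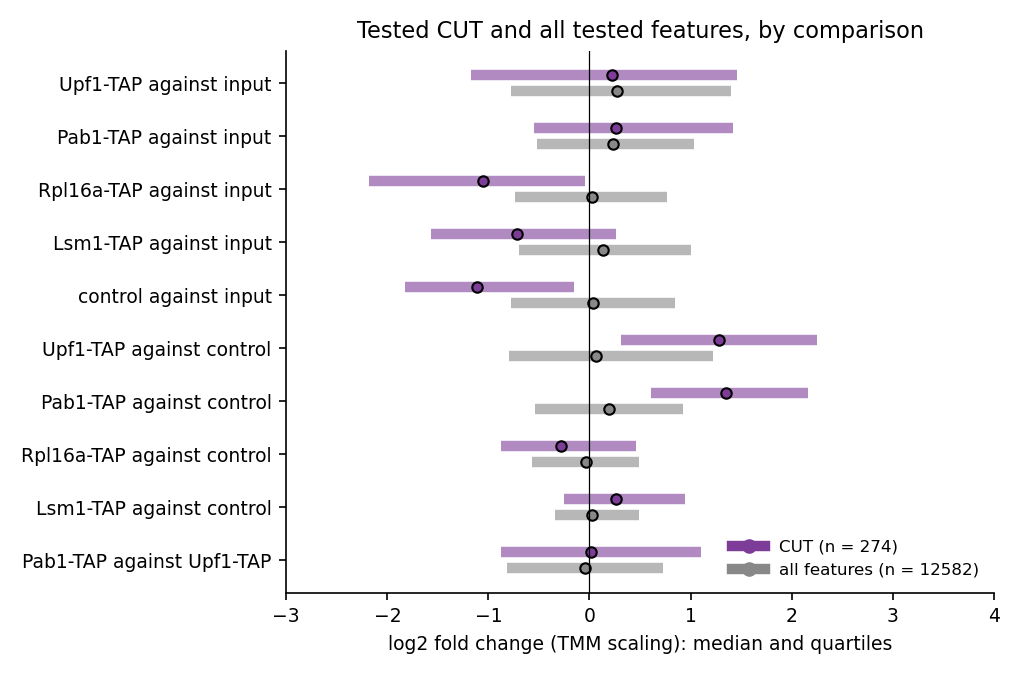
Log2 fold change after TMM scaling in each of the 10 comparisons, for the 274 tested CUT and for all 12582 tested features. Points are medians and bars run from the first to the third quartile; the CUT medians of Upf1-TAP and Pab1-TAP against the control, 1.28 and 1.35, lie to the right of those of all features, 0.07 and 0.19.

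Against the input, decreases made up most CUT calls in Rpl16a-TAP, Lsm1-TAP and the control. These comparisons share the 3 input libraries, as those above share the control libraries. In Upf1-TAP 44 CUT were higher, 16.1%, beside 22.2% of all features, and 25 were lower, 9.12%, beside 15.9%. The Upf1-TAP libraries lay wholly above the input for 68 CUT (30.3% of all features) and wholly below for 40 (19.4%). In Pab1-TAP 19 were higher, 6.93%, beside 9.89%, and 8 were lower, 2.92%, beside 7.89%. In Rpl16a-TAP 0 were higher beside 5.62% and 27 lower, 9.85%, beside 4% of all features. By edgeR's test 85 of the 274 CUT had an unadjusted p under 0.05 there in either direction, beside 3437 of all 12582 features, and DESeq2 also called 0 CUT higher. In Lsm1-TAP 9 were higher, 3.28%, beside 13.1%, and 33 lower, 12.04%, beside 9.77%, and in the control purification 1 was higher, 0.365%, beside 9.21%, and 23 lower, 8.39%, beside 6.96%. The share of CUT called was thus below that of all features in both directions for Upf1-TAP and Pab1-TAP.

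The direction of these calls depended on the scaling of the libraries. Scaling by total count in place of TMM moved the median of all features against the input by 2.06 (log2) for Upf1-TAP, 1.68 for Pab1-TAP, 1.57 for Lsm1-TAP, 1.20 for the control and 0.63 for Rpl16a-TAP, and by −0.56 to 0.87 in comparisons with the control. CUT calls then became 156 higher and 0 lower for Upf1-TAP, 133 and 0 for Pab1-TAP, 54 and 2 for Lsm1-TAP, 7 and 1 for the control, and 1 and 8 for Rpl16a-TAP. In either direction this was 56.9% of the CUT for Upf1-TAP beside 71.5% of all features, 48.5% beside 62.8% for Pab1-TAP, 20.4% beside 53.6% for Lsm1-TAP, 2.92% beside 31.3% for the control and 3.28% beside 8.58% for Rpl16a-TAP. Since scaling moves all features together, the CUT median was also set against the median of all features. CUT minus all features came to −0.05 for Upf1-TAP, 0.03 for Pab1-TAP, −0.85 for Lsm1-TAP, −1.15 for the control and −1.08 for Rpl16a-TAP. With 10 reads in every library compared, which left 5 to 9 CUT, it was −1.33 for Upf1-TAP and 0.29 for Pab1-TAP. It was then −0.06 for Lsm1-TAP, −0.56 for the control and −0.55 for Rpl16a-TAP. The CUT median itself turned from −0.72 to 0.73 in Lsm1-TAP and from −1.12 to 0.04 in the control with total count scaling.

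Pairing the libraries by replicate number raised the counts against the input. With the replicate number as a block they were 66 higher and 46 lower for Upf1-TAP, 112 in place of 69, and 32 and 16 for Pab1-TAP, 48 in place of 27. They were 5 and 58 for Rpl16a-TAP, 63 in place of 27, and 15 and 59 for Lsm1-TAP, 74 in place of 42. The block raised the calls of all features too, so that the CUT shares were 40.9% beside 51.3% for Upf1-TAP, 17.5% beside 32.3% for Pab1-TAP, 23.0% beside 24.8% for Rpl16a-TAP and 27.0% beside 37% for Lsm1-TAP. Without the block, single libraries weighed heavily. The Upf1-TAP count was 44 without Upf1-TAP replicate 1 or input replicate 2. The Pab1-TAP count was 8 without input replicate 1 and 4 without input replicate 2, and without Pab1-TAP replicate 3 it was 24 but turned to 8 higher and 16 lower. The Rpl16a-TAP count was 3, 5, 5 and 11 without Rpl16a-TAP replicate 1, Rpl16a-TAP replicate 2, input replicate 1 and input replicate 2. The Lsm1-TAP count was 11, 21, 13 and 14 without Lsm1-TAP replicate 1, Lsm1-TAP replicate 3, input replicate 1 and input replicate 2, and the control count was 3, 3, 3 and 7 without control replicate 2, control replicate 3, input replicate 1 and input replicate 2.

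The largest increases with Upf1-TAP were of CUT with few reads in the input. CUT046 was at 11.5, 12.1 and 9.57 CPM in Upf1-TAP, at 2.40, 1.21 and 1.97 CPM in Pab1-TAP, and had 2, 1 and 0 reads in the input libraries and 0, 5 and 0 in the control. Every Upf1-TAP library lay above every other library, and from the summed reads CUT046 was 40.6-fold higher than in the input (95% exact interval 13.8 to 197, counting error only). Against the control its log2 change was 5.14 ± 0.82 (edgeR adjusted p = 0.000324). CUT406, at 6.76, 6.60 and 1.88 CPM in Upf1-TAP, had 1, 1 and 0 input reads, a ratio of 30.2 (interval 8.29 to 250.3). CUT_GIM_0114 had 0, 2 and 0 input reads and ratios of 24.5 (6.73 to 204) in Upf1-TAP, at 5.17, 5.61 and 1.57 CPM, and of 20.5 (5.58 to 171) in Pab1-TAP, at 3.67, 3.27 and 6.46 CPM. CUT_GIM_0114 could be tested only because of its Upf1-TAP and Pab1-TAP reads, so its ratios are a description.

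CUT136 was raised in both purifications. It was at 10.5, 8.34 and 4.31 CPM in Upf1-TAP, 5.25, 3.54 and 5.02 CPM in Pab1-TAP and 0.400, 0.691 and 0.182 CPM in the control, with no overlap of the tagged and control libraries. Its log2 change over the control was 4.14 ± 0.63 in Upf1-TAP (edgeR adjusted p = 0.000218) and 3.38 ± 0.63 in Pab1-TAP (edgeR adjusted p = 0.00248), and both calls held without each single library. CUT136 had 10 reads in 7 libraries, 3 of Upf1-TAP, 3 of Pab1-TAP and 1 of Lsm1-TAP. It could be tested only because of its Upf1-TAP and Pab1-TAP reads, so these changes are given as a description. CUT_GIM_0872 was in Upf1-TAP at 7.92, 6.83 and 7.06 CPM, against 3, 1.21 and 1.28 CPM in the control (log2 change 2.00 ± 0.54, edgeR adjusted p = 0.00912). CUT105 was at 5.26, 6.87 and 1.41 CPM in Upf1-TAP and at 0.800, 0.345 and 0.182 CPM in the control (3.35 ± 0.80, edgeR adjusted p = 0.00453), but its input libraries, at 4.03, 2.00 and 0 CPM, overlapped those of Upf1-TAP.

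The largest decreases in Upf1-TAP against the input depended on the scaling. CUT146 was at 1.93, 2.61 and 2.90 CPM in Upf1-TAP and 12.4, 8.75 and 13.2 CPM in the input, a log2 change of −2.18 ± 0.57 (edgeR adjusted p = 0.00594) that was −0.12 with total count scaling (adjusted p = 0.856). CUT150 was at 0.435, 1.19 and 1.10 CPM against 15.2, 7.83 and 3.05 CPM, a change of −3.33 ± 0.90 (edgeR adjusted p = 0.00757), or −1.36 with total count scaling (adjusted p = 0.162). CUT314 was at 0.676, 0.395 and 1.33 CPM against 19.5, 1.69 and 4.07 CPM in the input, so input replicate 1 set its change of −3.46 ± 0.87 (edgeR adjusted p = 0.00473), which was −1.63 and not called without that library. CUT_GIM_0500 and CUT_GIM_0902 fell by 2.33 and 2.03 and each kept the call in 2 of the 6 fits that left out 1 library.

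Upf1-TAP and Pab1-TAP were also compared directly, a contrast that uses the level of neither input nor control. Pab1-TAP had 36 CUT above Upf1-TAP, 13.1%, beside 10.5% of all features, and 30 below, 10.9%, beside 12.9% of all features. The libraries did not overlap for 49 CUT above (17.4% of all features) and 48 below (21.3%). Of the tested CUT, 85 reached the read minimum through Upf1-TAP alone and 72 through Pab1-TAP alone, so many had to be high in a group of this comparison. Among the 103 that reached it outside both groups, 13 were above, 12.6%, beside 11.6% of such features, and 19 below, 18.4%, beside 13.1%. The median change was 0.02. With total count scaling 19 were higher and 24 lower, 15.7% in either direction beside 12.9% of all features. With the replicate block 56 were higher and 50 lower, 106 in place of 66, which was 38.7% beside 41.3% of all features. The count was 30 without Upf1-TAP replicate 1, 38 without Upf1-TAP replicate 2, 36 without Pab1-TAP replicate 2 and 36 without Pab1-TAP replicate 3, of which 11 higher and 25 lower in the last.

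**Figure D4:**
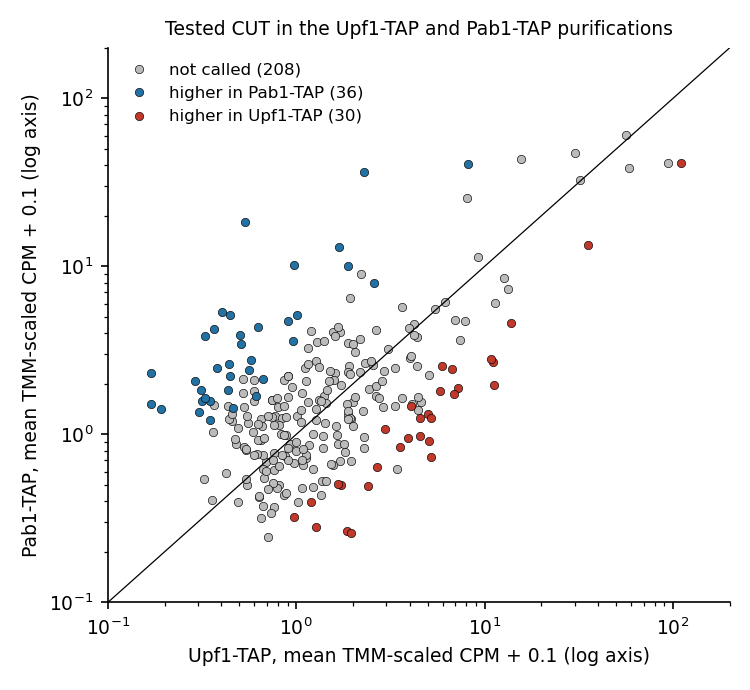
Mean TMM-scaled CPM of each of the 274 tested CUT in Upf1-TAP (horizontal, log axis) and Pab1-TAP (vertical, log axis), with 0.1 added to each value. Colours mark the 36 CUT called above and the 30 called below Upf1-TAP in Pab1-TAP, and the line marks equal levels.

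On the Upf1-TAP side, 19 CUT were called higher in Upf1-TAP than in each of input, control and Pab1-TAP, 6.93%, beside 7.53% of all features. CUT359 was at 5.17, 5.73 and 4.39 CPM in Upf1-TAP and at 0.632, 0.538 and 0.718 CPM in Pab1-TAP, while the Lsm1-TAP libraries gave 3.57, 2.16 and 1.52 CPM. The difference of Pab1-TAP from Upf1-TAP was −3.03 ± 0.60 (log2; edgeR adjusted p = 0.00221). CUT090 was at 6.42, 4.66 and 3.77 CPM in Upf1-TAP and 0.506, 1.03 and 0.897 CPM in Pab1-TAP (−2.60 ± 0.49, edgeR adjusted p = 0.0017). CUT046 differed by −2.58 ± 0.64, CUT032 by −2.27 ± 0.40 and CUT406 by −2.12 ± 0.56, and all 5 calls held without each single library and with total count scaling. The low CUT392, with 4, 5 and 0 reads in Pab1-TAP against 45, 56 and 15 in Upf1-TAP, and CUT202, with 6, 6 and 3 against 56, 69 and 19, had differences of −3.18 ± 0.71 and −2.63 ± 0.54. These CUT could be tested only because of their Upf1-TAP reads, so the differences are given as a description.

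On the Pab1-TAP side, 3 CUT were called higher in Pab1-TAP than in each of input, control and Upf1-TAP, 1.09%, beside 0.827% of all features. CUT083 was at 2.34, 3.05 and 10.4 CPM in Pab1-TAP and at 0.241, 0.355 and 0.314 CPM in Upf1-TAP, below its input libraries at 0.930, 0.768 and 1.02 CPM. Its log2 difference was 4.01 ± 0.65. CUT163 was at 0.948, 1.70 and 12.6 CPM against 0.241, 0.237 and 0.549 CPM, a difference of 3.83 ± 0.86 that was 2.01 without Pab1-TAP replicate 3. Both reached the read minimum only through Pab1-TAP, so these differences too are a description. The remaining one, CUT_GIM_1019, was at 2.15, 1.30 and 26.4 CPM in Pab1-TAP and at 1.93, 1.82 and 1.57 CPM in Upf1-TAP, so the groups overlapped, and without Pab1-TAP replicate 3 the difference of 2.43 ± 0.77 (edgeR adjusted p = 0.0294) became −0.05.

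The largest differences in favour of Pab1-TAP were larger with that replicate 3 than without it, a library with 13.3% ribosomal RNA, whose part in these differences was not tested. CUT_GIM_1268 was at 1.83, 2.56 and 50.8 CPM in Pab1-TAP and at 0.241, 0.276 and 0.784 CPM in Upf1-TAP, a log2 difference of 5.42 ± 1.21 that was 2.41 without Pab1-TAP replicate 3, and this CUT too was testable only through its Pab1-TAP reads. CUT_GIM_0488 was at 8.09, 10.1 and 91.1 CPM in Pab1-TAP and 1.40, 1.46 and 3.69 CPM in Upf1-TAP (4.06 ± 0.92, edgeR adjusted p = 0.0048), or 2.09 and still called without that library. Its input libraries, at 9.61, 9.37 and 10.2 CPM, lay within the range of Pab1-TAP. CUT_GIM_0878 was at 4.17, 5.52 and 20.5 CPM against 0.966, 0.790 and 0.863 CPM (3.48 ± 0.74, edgeR adjusted p = 0.00336). It could be tested only because of its reads in the groups compared, so this difference too is a description. CUT_GIM_0154, which was high in Rpl16a-TAP, was also higher in Pab1-TAP, at 4.23, 19.1 and 15.8 CPM, than in Upf1-TAP, at 0.966, 2.92 and 0.863 CPM (3.001 ± 0.77, edgeR adjusted p = 0.0100).

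**Figure D5:**
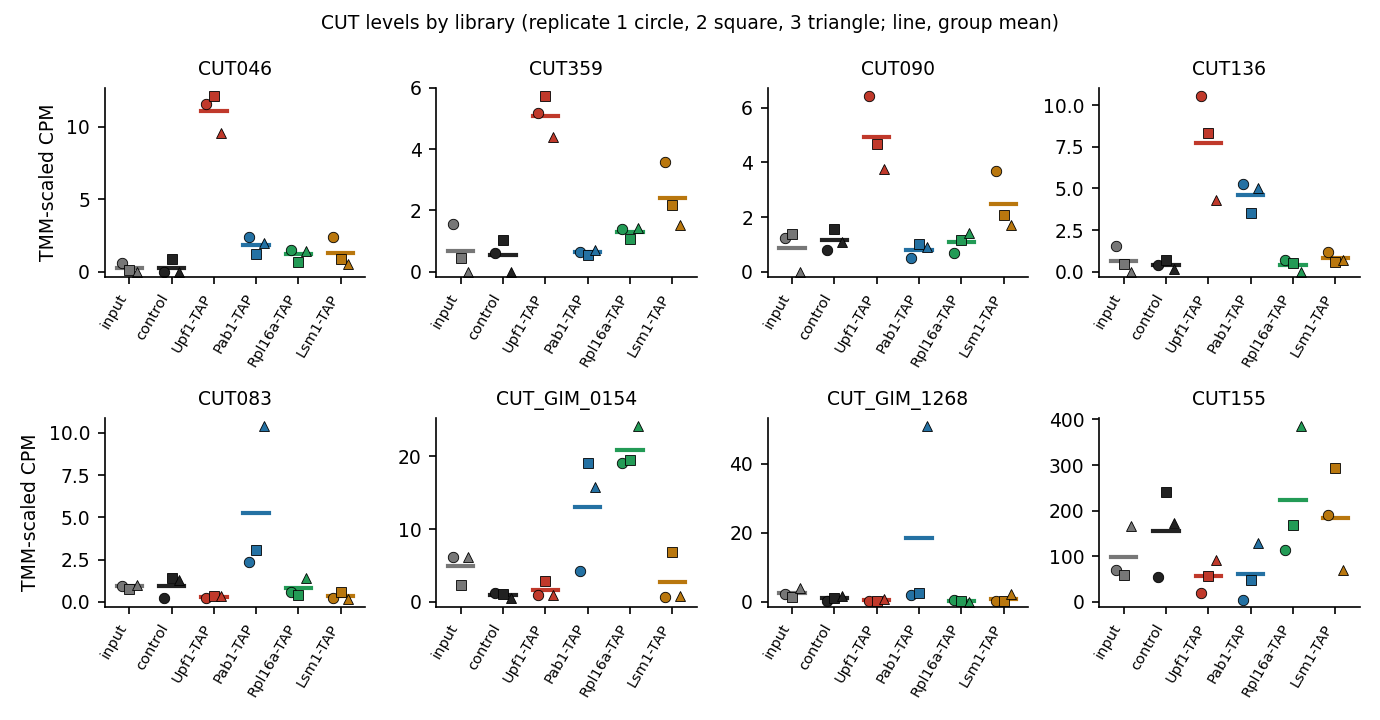
TMM-scaled CPM (vertical axes, linear, a separate range for each plot) of 8 CUT in the 18 libraries, with circle, square and triangle for replicates 1, 2 and 3 and a line for each group mean. CUT046, CUT359 and CUT090 are highest in Upf1-TAP, CUT136 in Upf1-TAP and Pab1-TAP, CUT083 and CUT_GIM_1268 in Pab1-TAP, CUT_GIM_0154 in Rpl16a-TAP and Pab1-TAP, and CUT155 varies within every group.

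CUT383 was lower than the input in all 5 purifications, the untagged control included. It was at 14.9, 8.60 and 8.13 CPM in the input, at 2.40, 1.38 and 0.912 CPM in the control, at 1.52, 1.67 and 0 CPM in Rpl16a-TAP and at 2.26, 3.77 and 0.892 CPM in Lsm1-TAP. Its input libraries lay above all of these, with log2 changes of −2.77 ± 0.62 (edgeR adjusted p = 0.00707), −2.89 ± 0.65 (edgeR adjusted p = 0.0108) and −2.20 ± 0.58 (edgeR adjusted p = 0.0117), and it was also lower in Pab1-TAP, at 1.20, 3.50 and 2.15 CPM (−2.20 ± 0.58, edgeR adjusted p = 0.0151), and in Upf1-TAP, at 2.41, 4.23 and 1.80 CPM (−1.91 ± 0.57, edgeR adjusted p = 0.0132). With total count scaling the first 4 changes kept their sign, at −1.55, −2.17, −0.69 and −0.61, and none passed. CUT153 was at 10.2, 5.84 and 4.07 CPM in the input and 0.691, 0.750 and 0 CPM in Rpl16a-TAP, a log2 change of −3.35 ± 0.65 (edgeR adjusted p = 0.00485) that also passed with total count scaling (−2.62, edgeR adjusted p = 0.0341). CUT153 was also below the input in the control, at 2.20, 1.21 and 1.28 CPM (−2.15 ± 0.57, edgeR adjusted p = 0.0166), in Lsm1-TAP (−1.94 ± 0.54, 0.0156) and in Pab1-TAP (−2.11 ± 0.54, 0.0136), and Rpl16a-TAP against the control did not pass (−1.20 ± 0.66, edgeR adjusted p = 0.426). In Upf1-TAP, at 9.66, 7.74 and 2.90 CPM, it overlapped the input. CUT_GIM_0592 was at 5.89, 4.45 and 3.05 CPM in the input, 5.46, 6.36 and 5.81 CPM in Upf1-TAP, 0.238, 0.721 and 0.268 CPM in Lsm1-TAP and 0.415, 0.333 and 0 CPM in Rpl16a-TAP, and its changes of −3.42 ± 0.58 in Lsm1-TAP (edgeR adjusted p = 0.000729) and −3.70 ± 0.67 in Rpl16a-TAP (edgeR adjusted p = 0.00364) passed under both scalings. It was also below the input in the control, at 1.6, 1.38 and 0.912 CPM (−1.83 ± 0.55, edgeR adjusted p = 0.0308), and against the control neither Lsm1-TAP (−1.59 ± 0.60, edgeR adjusted p = 0.387) nor Rpl16a-TAP (−1.86 ± 0.69, edgeR adjusted p = 0.250) passed.

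The largest increases of Lsm1-TAP over the input were of CUT with low levels. CUT406 had the largest, 2.84 ± 0.93 (log2; edgeR adjusted p = 0.0355), with 21, 14 and 8 reads in Lsm1-TAP and 1, 1 and 0 in the input. It kept the call in 2 of the 6 fits that left out 1 library. CUT093 was at 4.16, 3.69 and 4.73 CPM in Lsm1-TAP, 7.77, 6.95 and 2.27 CPM in Upf1-TAP and 0.930, 0.768 and 1.02 CPM in the input, with a log2 change of 2.27 ± 0.57 for Lsm1-TAP (edgeR adjusted p = 0.00857). CUT220 was at 5.71, 2.56 and 2.05 CPM in Lsm1-TAP, against 3, 1 and 1 input reads (2.67 ± 0.73, edgeR adjusted p = 0.0145), and its control libraries, at 2.40, 1.04 and 1.09 CPM, overlapped those of Lsm1-TAP. CUT131 and CUT410 changed by 2.15 ± 0.70 and 2.22 ± 0.68. Of the 6 fits that left out 1 library, 5 kept the call of CUT093, 4 that of CUT220, 2 that of CUT131 and 3 that of CUT410. Each of these calls was lost without input replicate 2. None of these CUT passed edgeR's test against the control, where 0 of all features did, so this does not set them apart. Over the control CUT093 changed by 1.61 ± 0.49 and CUT131 by 1.88 ± 0.61 (log2), with no overlap of libraries. CUT220 changed by 1.18 ± 0.56 and CUT410 by 0.87 ± 0.54, with overlap.

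The 2 kinds of identifier are given side by side. CUT_GIM took 53.3% to 58.4% of the CUT reads in Pab1-TAP and 45.8% to 56.7% in Upf1-TAP, but 24.5% to 30.7% in Lsm1-TAP, 25.2% to 35.5% in the control and 36.5% to 43.3% in the input. Of the 167 tested numbered CUT, 18 were above (10.8%) and 26 below (15.6%) Upf1-TAP in Pab1-TAP, with a median of −0.20. Of the 107 tested CUT_GIM, 18 were above (16.8%) and 4 below (3.74%), with a median of 0.56. Of all features, 10.5% were above and 12.9% below. Many of these CUT were tested only through reads in a group of this comparison. Without Pab1-TAP replicate 3 the calls over both kinds were 11 above and 25 below. Over the control, 53 numbered CUT (31.7%) and 28 CUT_GIM (26.2%) were higher in Upf1-TAP, beside 19.8% of all features, and with Pab1-TAP the numbers were 22 (13.2%) and 33 (30.8%), beside 8.24%. The difference between the kinds was not tested.

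Beside CUT, the stable unannotated transcripts (SUT) and XUT are the non-coding classes most like them, and values are given side by side with no test between classes. Against the control, 88 of 167 tested SUT (52.7%) and 324 of 522 tested XUT (62.1%) were higher in Upf1-TAP, beside 29.6% of CUT and 19.8% of all features. The medians were 1.72 and 2.15 beside the 1.28 of CUT, and ORF had a median of −0.30. In Pab1-TAP the medians were 1.25 for SUT, 1.14 for XUT, 1.35 for CUT and −0.16 for ORF. Between the purifications, Pab1-TAP minus Upf1-TAP, the medians were −0.76 for SUT, −1.13 for XUT and 0.02 for CUT. Lower in Pab1-TAP were 145 XUT (27.8%) and 30 CUT (10.9%), beside 12.9% of all features. Higher were 8 XUT (1.53%) and 36 CUT (13.1%), beside 10.5%. Against the input, 16.1% of CUT, 36.5% of SUT and 34.7% of XUT were higher in Upf1-TAP, beside 22.2% of all features. The Rpl16a-TAP medians against the input were −1.05 for CUT, −0.81 for SUT and −1.07 for XUT, beside 0.03 for all features.

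The mRNAs of the machinery that makes and degrades CUT were also read, as a list of 22 genes, all of them tested. The list held genes of the exosome, TRAMP and the Nrd1-Nab3-Sen1 complex, and also PCF11. Against the input, Upf1-TAP had 1 of them higher and 5 lower, where the shares of all ORF came to 21.0% and 21.7%. Lsm1-TAP had 3 and 2 (ORF 17.6% and 11.4%), and Rpl16a-TAP had 3 and 0 (ORF 9.56% and 4.26%). Pab1-TAP had 0 and 1 (ORF 9.10% and 12.4%), and the control had 4 and 1 (ORF 15.1% and 8.36%). The list was not tested against all ORF. MTR4, the helicase of TRAMP, changed by −1.16 ± 0.35 in Upf1-TAP against the input, and DIS3, the catalytic subunit of the exosome, by −1.22 ± 0.30 there and by −1.11 ± 0.30 in Pab1-TAP (edgeR adjusted p = 0.0132, 0.00428 and 0.0180). SEN1, the helicase of termination, and NAB3, an RNA-binding subunit, were above the input in the control itself, by 2.08 ± 0.45 and 1.65 ± 0.38 (edgeR adjusted p = 0.00559 and 0.00876). Against the control, 1 of the 22 was higher and 6 were lower in Upf1-TAP, and of all ORF 15.9% were higher and 23.6% lower there.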

How the data were processed

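Per the labels and the study's methods, the authors used cutadapt 1.16 for trimming, STAR 2.7 for alignment to the S288C genome and featureCounts of Subread 1.6.2 for counting reads per feature, after removal of ribosomal RNA with either of 2 reagents. The sources used here do not say which library received which reagent. The deposited values are raw read counts for 23521 features in 18 libraries (2790148 to 16381719 reads), 3 for each of 6 groups. Replicates differed by more than counting error (lowest chi-square per degree of freedom within a group 17.7).

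One edgeR 4.0.16 model (R 4.3.3) took all 18 libraries, scaled by TMM, and the quasi-likelihood test (12 residual degrees of freedom) was run on the 12582 features that reached 10 reads in 3 or more libraries. Benjamini-Hochberg adjustment of p-values covered all of them, and an adjusted p under 0.05 was called. Of the CUT, 274 were tested. The other 443 with a read held 11947 of the 151259 CUT reads. Alternatives were DESeq2 1.42.0, its size factors, total count scaling, other filters, only the 6 libraries compared, a replicate block, leaving out replicates and, added after seeing the data, only CUT with 10 reads in 3 libraries outside the groups compared.

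By the study's methods the input was RNA taken before purification. Replicates were averaged for each condition before the input was subtracted. Subtraction within each replicate is described only for the comparison with quantitative PCR. That use ties input and purification by number, although 3 inputs served 5 purifications. The main fit left this pairing out, and the replicate block was an alternative. Every same-numbered pair of a tagged purification and the input, and of Pab1-TAP and Upf1-TAP, also correlated above 0.1. Deviations from the group means correlated at 0.125 to 0.482 between purification and input of 1 number (11 of 12 libraries correlated best with their own number), and at 0.560 to 0.685 between Pab1-TAP and Upf1-TAP. Replicate 2 of the control correlated at −0.208 with input replicate 2, so the control was not taken as paired. The procedure was tested on simulated data. Over the 10 comparisons it recovered 0 to 4 of 100 changes of 2-fold and 11 to 45 of 100 of 4-fold, with 0 to 4 false calls. The changed features were drawn from all 12582 tested features and not from CUT. All other features had equal expected shares in every group, unlike the data, so the recovery for CUT was not measured.

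CUT were named by rule: the 10 with the highest mean over the group means, and in each comparison the 5 largest increases and 5 largest decreases among those called, with a mean of at least 20 reads and no overlap between groups, plus up to 5 CUT higher in Upf1-TAP than in input, control and Pab1-TAP, and up to 5 higher in Pab1-TAP than in input, control and Upf1-TAP, by the size of the difference between the purifications. Members, lists and tests were chosen with earlier results of these data known. Python 3.11.15 with pandas 2.3.3, numpy 2.4.6 and matplotlib 3.10.9 gave counts and figures.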

Additional observations from a re-analysis of the deposited data

How the results depend on the processing

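Low counts and the spread between replicates limit these results: the median tested CUT had 191 reads over 18 libraries, and the input and Rpl16a-TAP groups had 9 and 6 CUT with 10 reads in all 3 libraries. CUT called are given per comparison as higher and lower together. DESeq2 size factors in edgeR kept all 10 counts within 1.5 times, as did DESeq2 and no filter except for Rpl16a-TAP against control, 3 with either. Total count scaling gave 156 for Upf1-TAP, 133 for Pab1-TAP, 8 for control and 9 for Rpl16a-TAP against input, 135 for Upf1-TAP and 0 for Rpl16a-TAP against control (39 at an unadjusted p under 0.05 in edgeR), and 43 for Pab1-TAP against Upf1-TAP. With only the 6 libraries compared, where fewer CUT were tested, the counts were 8 for Pab1-TAP, 24 for Lsm1-TAP, 6 for control and 9 for Rpl16a-TAP against input, 15 for Pab1-TAP against control and 42 for Pab1-TAP against Upf1-TAP. With at least 10 reads in every library compared, which left 5 to 72 CUT, they were 4 for Upf1-TAP and 0 for each other group against input, 8 for Upf1-TAP, 4 for Pab1-TAP and 0 for Rpl16a-TAP against control, and 16 for Pab1-TAP against Upf1-TAP. With the replicate block they were 112 for Upf1-TAP, 48 for Pab1-TAP, 74 for Lsm1-TAP, 47 for control and 63 for Rpl16a-TAP against input, 92 for Pab1-TAP, 2 for Lsm1-TAP and 7 for Rpl16a-TAP against control, and 106 for Pab1-TAP against Upf1-TAP, and no call of a named CUT was lost; the control shares only a number with the others. Counting only CUT with 10 reads in 3 libraries outside the 2 groups compared, a choice made after seeing the data, gave 52 for Upf1-TAP and 33 for Pab1-TAP against control and 32 for Pab1-TAP against Upf1-TAP, with the other counts within 1.5 times. The cause of these changes was not tested where none is stated.

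Leaving out a replicate number or 1 library gave against the input 9 to 96 CUT with Upf1-TAP, 0 to 60 with Rpl16a-TAP, 0 to 41 with Pab1-TAP, 0 to 42 with control and 0 to 51 with Lsm1-TAP, against the control 1 to 98 with Upf1-TAP, 0 to 3 with Rpl16a-TAP, 0 to 46 with Pab1-TAP and 0 to 0 with Lsm1-TAP, and 0 to 63 for Pab1-TAP against Upf1-TAP. Each comparison had its lowest count, ties included, without replicate number 2 in all groups, and for comparisons with the input the highest came without number 3. CUT_GIM_1019 changed sign between Pab1-TAP and Upf1-TAP without replicate number 3 (−0.23) and without Pab1-TAP replicate 3 (−0.05), the lowest values, and reached 2.98 without Pab1-TAP replicate 2. Of the 66 named changes, total count scaling lost 24 calls, DESeq2 size factors lost 2 and no filter lost 1, and none of these 3 settings turned a sign.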
